A study of Mus musculus with 186 samples.

Results

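The calcium/calmodulin-dependent protein kinases described here are 8 genes, taken as a named list from the 28338 genes of the deposited table: the 4 subunits of CaM kinase II (Camk2a, Camk2b, Camk2d and Camk2g), the 2 CaM kinase kinases (Camkk1 and Camkk2), and 2 kinases that they activate (Camk4 and Camk1d). Each was measured in all 186 bulk RNA-seq libraries, made from brain regions of mice of 3 Akap11 genotypes. The labels name 6 dissected regions: striatum (STR), thalamus (TH), substantia nigra (SN), hippocampus (HP) and a pair of cortical areas, prefrontal (PFC) and somatosensory (SSC). Mice were 4 weeks (96 libraries) or 12 weeks old (90 libraries), and carried Akap11 +/- (HET), Akap11 -/- (KO) or wild type (WT) alleles. Of the 36 groups, 30 held 5 libraries and 6 held 6. Akap11 encodes an A-kinase anchoring protein, a scaffold that holds protein kinase A at particular places in the cell. The labels give no strain, sex, construction of the allele or pooling of animals, and they do not say whether a replicate number marks one animal, so p-values measure the spread between libraries.

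Calcium that enters a neuron binds calmodulin, and calmodulin in turn binds and activates these kinases. CaM kinase II forms large ring-shaped holoenzymes of its subunits, phosphorylates itself, and acts at excitatory synapses in long-term potentiation. In forebrain neurons the alpha and beta subunits predominate, and the beta subunit also binds actin. The remaining enzymes form a cascade: CaM kinase kinases phosphorylate CaM kinase I, including its delta form, and CaM kinase IV, a largely nuclear kinase that phosphorylates CREB, and Camkk2 also phosphorylates AMP-activated protein kinase.

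Levels are given as CPM, counts scaled to library size by TMM over all 186 libraries. Library totals ranged from 20.8 to 73.3 M expected counts, and all 8 kinases passed the low-count filter in every comparison. Akap11 itself, the targeted gene, had WT group means of 194 to 402 CPM, HET group means of 107 to 206 CPM and KO group means of 13.1 to 21.1 CPM. A substantia nigra library labelled WT 92, at 4 weeks, held 44.8 CPM of Akap11, against 197 to 245 CPM in the other 5 WT libraries of its group. Every one of the 30 striatal libraries had a higher striatal projection neuron marker score than each library of the other regions, and the 32 nigral libraries did so for dopamine neuron markers. Thalamic markers did so in 30 of 31 thalamic libraries, hippocampal markers in 30 of 31 hippocampal libraries and cortical excitatory markers in 53 of 62 cortical libraries. The lowest nigral dopamine neuron score, 2.02 in the 4-week WT 42, was close to the highest elsewhere, 1.9 in the 4-week thalamic WT 913. Nigral WT 42 also had a thalamic score of 7.71, above the 7.63 of thalamic WT 913. At 4 weeks, 11 libraries stood apart in an earlier account of these data: 4 from striatum (KO 51, KO 161, KO 163 and WT 92), 3 WT libraries from thalamus (23, 913 and 914) and 4 from substantia nigra (WT 42, WT 92, KO 44 and KO 91). Calls of KO against WT, of the striatal effect and of age that rest on them are given with and without them. Other 4-week values include them unless stated.

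The 4 kinases that were called in a comparison of KO with WT all have a promoter window in the RefSeq table for GRCm38.p6. The 250 bases before their annotated starts are shown here because edgeR called these genes. The calls at 4 weeks, which include the only call of Camkk1, depended on single libraries. Capitals mark a match to the SP1 box (GGGCGG) or to the core of the cyclic AMP response element (TGACG), each searched on both strands. The windows are chr11:6065749-6065998 (minus) for Camk2b, chr5:122779411-122779660 (minus) for Camkk2, chr11:73018738-73018987 (plus) for Camkk1 and chr2:5714763-5715012 (minus) for Camk1d, the last being 1 of 2 annotated starts.
Camk2b: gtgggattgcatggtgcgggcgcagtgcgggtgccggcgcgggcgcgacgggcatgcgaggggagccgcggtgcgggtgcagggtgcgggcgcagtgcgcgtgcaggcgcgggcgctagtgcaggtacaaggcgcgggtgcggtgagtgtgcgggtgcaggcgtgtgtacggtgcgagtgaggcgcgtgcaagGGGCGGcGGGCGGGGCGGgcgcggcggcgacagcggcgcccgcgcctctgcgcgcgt
Camkk2: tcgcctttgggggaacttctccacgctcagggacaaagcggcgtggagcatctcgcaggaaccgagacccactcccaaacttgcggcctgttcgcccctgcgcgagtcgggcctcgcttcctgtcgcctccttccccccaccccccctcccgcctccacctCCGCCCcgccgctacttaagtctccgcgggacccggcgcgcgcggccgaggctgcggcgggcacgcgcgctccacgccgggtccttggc
Camkk1: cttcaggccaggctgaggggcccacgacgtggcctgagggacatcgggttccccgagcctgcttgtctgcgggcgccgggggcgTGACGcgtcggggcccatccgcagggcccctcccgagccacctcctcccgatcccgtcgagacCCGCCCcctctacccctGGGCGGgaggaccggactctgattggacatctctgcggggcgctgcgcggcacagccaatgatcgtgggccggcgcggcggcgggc
Camk1d: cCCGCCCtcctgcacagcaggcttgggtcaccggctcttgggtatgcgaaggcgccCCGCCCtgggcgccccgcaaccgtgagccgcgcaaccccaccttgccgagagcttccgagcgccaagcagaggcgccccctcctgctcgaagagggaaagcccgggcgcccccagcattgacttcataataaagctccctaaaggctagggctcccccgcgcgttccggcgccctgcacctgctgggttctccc
The SP1 box was present in all 4 windows, against 32.7% of all 32851 promoter windows of this length. It was also present in the window of Camk2d (3 matches, 68.4% G and C), which edgeR did not call. The second Camk1d window held 1 match. The box was therefore not particular to the 4 kinases called. The 4 windows shown were rich in G and C, at 78.4% in Camk2b, 72.4% in Camkk2, 74.4% in Camkk1 and 69.2% in Camk1d. The core TGACG occurred in Camkk1 only (17.8% of all windows). The full element TGACGTCA (1.55% of all windows) and the EGR site GCGTGGGCG (0.536% of all windows) were not found in these 4 windows. A match is a description of the letters and not a binding site.

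On GRCm38, GENCODE M21 places Camk2b at chr11:5969644-6066362 on the minus strand, Camkk1 at chr11:73019008-73042073 on the plus strand, Camkk2 at chr5:122731170-122779409 on the minus strand and Camk1d at chr2:5293457-5714515 on the minus strand. Camk2d lies at chr3:126596302-126846326 (plus) and Camk2g at chr14:20734875-20794088 (minus). Camk2a (60925618 to 60988152, plus) and Camk4 (32934931 to 33191228, plus) both lie on chromosome 18. All 8 are protein-coding. Exons of Camk4 overlap an exon of 2310026I22Rik on the opposite strand. Strand use in the counting was not given in the sources used here, so the Camk4 values are uncertain to that extent.

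In WT brain the CaM kinase II subunits divided the regions between them. Camk2a, the alpha subunit, was high in cortex and hippocampus and low in substantia nigra. At 12 weeks its level was 4642 ± 626 CPM in HP, 3673 ± 392 CPM in PFC, 3442 ± 250 CPM in SSC, 1398 ± 163 CPM in STR, 1001 ± 52.7 CPM in TH and 129.5 ± 44.3 CPM in SN (mean ± SD, n = 5 each). The hippocampal mean was 35.8-fold above that of the nigra, and PFC and SSC were neighbours that did not pass the test (edgeR quasi-likelihood test, adjusted p = 0.704). At 4 weeks SSC was highest, at 4642 ± 1416 CPM (SD, n = 5), and SSC, HP and PFC did not pass the test against each other (edgeR adjusted p of 0.427 to 0.623).

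**Figure D1:**
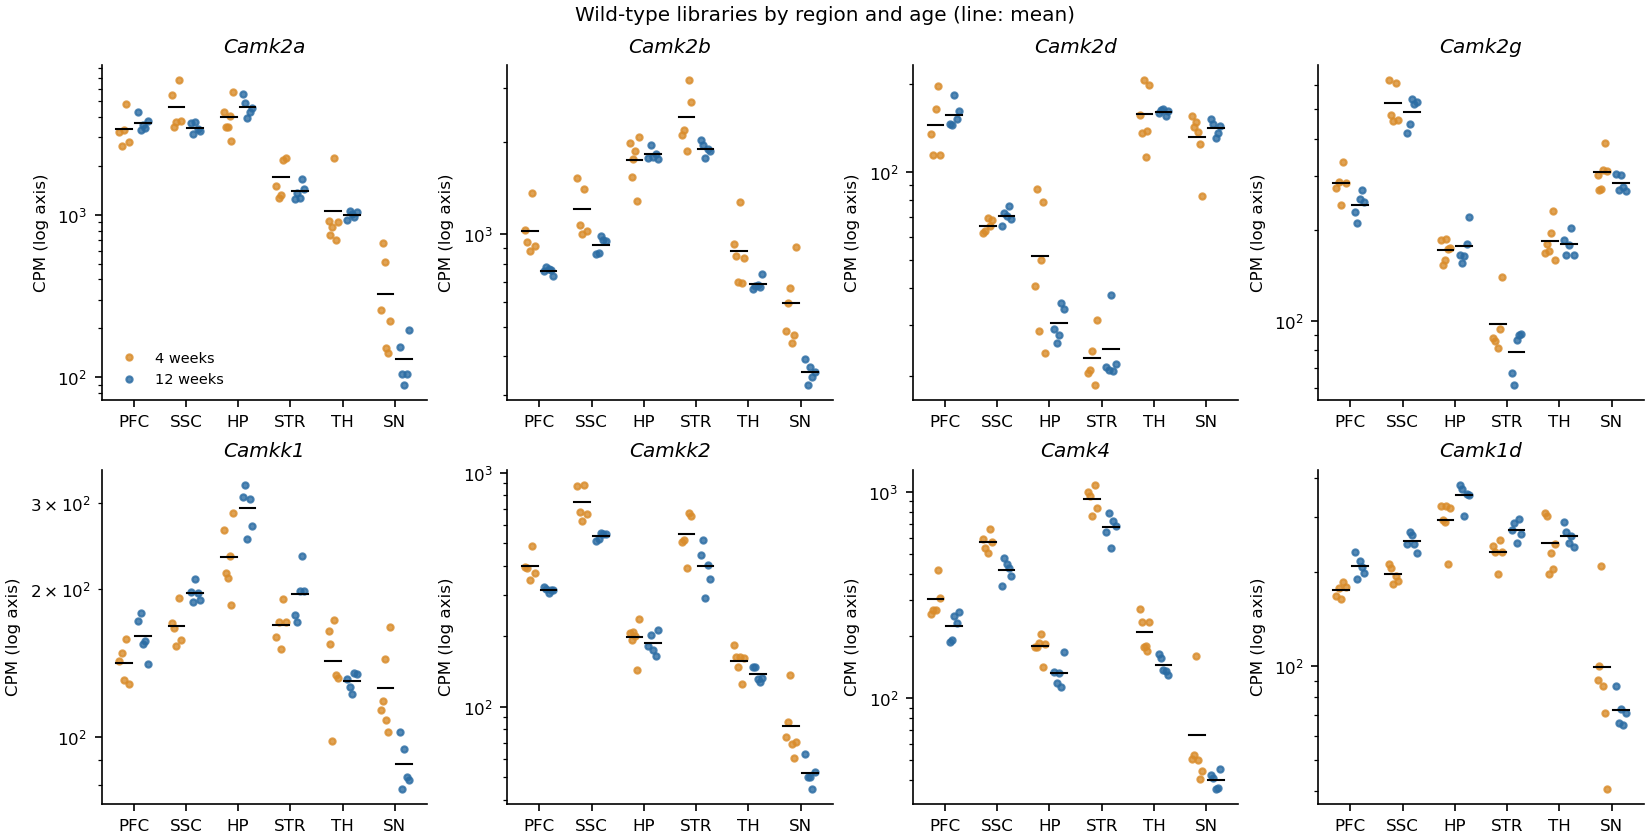
Levels of the 8 kinases in each WT library, by region (horizontal axis) and age (colour), in CPM on a log axis, with a line at the mean of each group. Camk2b and Camk4 are highest in STR at both ages, Camk2d and Camk2g are lowest there, and the other 6 kinases are lowest in SN.

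Camk2b, the beta subunit, had its highest level in striatum at both ages. The 5 WT striatal libraries at 12 weeks held 1773, 1865, 1896, 1949 and 2028 CPM, and the 5 hippocampal libraries held 1765, 1774, 1790.4, 1834 and 1949.5 CPM. These ranges overlap, and STR and HP did not pass the test (adjusted p = 0.232). Every other region lay lower, down to 356.8 ± 26.1 CPM in SN (SD, n = 5). At 4 weeks the striatal mean was 2409 ± 525 CPM (SD, n = 5), 4.05-fold above that of SN.

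The gamma and delta subunits had the reverse standing in striatum. Camk2d was lowest there, at 23.1 ± 4.91 CPM at 4 weeks and 24.6 ± 7.44 CPM at 12 weeks (SD, n = 5 each). Its highest mean was in TH at both ages. At 12 weeks TH (160.4 ± 3.54 CPM), PFC (156.8 ± 15.8 CPM) and SN (141 ± 8.36 CPM) did not pass the test against each other (edgeR adjusted p of 0.197 to 0.823). Even so, every TH library (154.8 to 164.0 CPM) lay above every SN library (130.3 to 151.3 CPM). Camk2g was highest in SSC, at 491 ± 56.0 CPM at 12 weeks, next in SN at 285 ± 18.5 CPM and lowest in STR at 79.1 ± 13.7 CPM (SD, n = 5 each). HP and TH could not be ordered for Camk2g at either age (adjusted p = 0.935 at 12 weeks).

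Levels of different genes can be compared only per length of transcript. Per kilobase of exon, Camk2a made up 70.7% to 79.3% of the summed CaM kinase II transcript in PFC, SSC and HP over both ages. Per kilobase of the longest transcript this share was 62.6% to 72.6%. In STR the order of the leading subunits was turned, with Camk2b at 51.9% and Camk2a at 44.9% at 4 weeks, and 51.0% and 45.8% at 12 weeks. In SN at 12 weeks Camk2g led with 41.5%, Camk2b had 36.5%, Camk2a 16.2% and Camk2d 5.86%. With the longest transcript as the length in place of all exons, Camk2b led in SN at 12 weeks (40.2% against 35.8% for Camk2g), so the order there depends on the length used. In STR at 12 weeks Camk2b led under both lengths (60.0% with the longest transcript). In TH at 4 weeks Camk2a led per kilobase of exon (51.7% against 35.3% for Camk2b), but not with the longest transcript (42.2% against 42.3%).

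The upstream kinases also had unlike distributions. Camkk2 was highest in SSC (748 ± 126 CPM at 4 weeks and 536 ± 17.9 CPM at 12 weeks) and second in STR (546 ± 115 and 401 ± 85.0 CPM, SD, n = 5 each). It was lowest in SN, where the 12-week mean of 52.1 ± 6.69 CPM was 10.3-fold below that of SSC. At 12 weeks all 15 pairs of regions were called for Camkk2. Camkk1 varied less, with a 1.85-fold range at 4 weeks and a 3.32-fold range at 12 weeks, from 293 ± 30.4 CPM in HP to 88.0 ± 10.1 CPM in SN (SD, n = 5 each). SSC (197 ± 8.25 CPM) and STR (196 ± 24.6 CPM, SD, n = 5 each) could not be ordered for Camkk1 at 12 weeks (adjusted p = 1).

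Of the kinases that they phosphorylate, Camk4 was highest in striatum. Its 5 WT striatal libraries at 12 weeks held 535.5, 639, 684, 727 and 789.6 CPM, above every 12-week WT library of the other regions, whose highest was 481 CPM in SSC. The 5 nigral libraries held 36.3, 36.6, 41.1, 42.2 and 45.4 CPM, and the striatal mean was 16.7-fold above theirs. Camk1d was highest in HP (353.5 ± 30.1 CPM at 12 weeks) and lowest in SN (72.3 ± 8.72 CPM, SD, n = 5 each). Its SSC, STR and TH levels at 12 weeks, between 252 and 274 CPM on average, did not pass the test against each other (edgeR adjusted p of 0.131 to 0.673).

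When each region was set against the mean of the other 5 in WT, 78 of 96 tests of the kinases were called. Regions differ in a large share of all genes, so these counts are read against the share called. At 12 weeks all 8 kinases were called in HP (54.4% of all genes called), in TH (66.9%) and in SN (67.8%), 7 in STR (67.3%), and 6 each in PFC (57.0%) and SSC (56.4%). At 4 weeks 8 were called in HP (36.4%) and in SN (59.0%), 6 in TH (48.1%), 5 in STR (52.9%), and 4 each in PFC (43.0%) and SSC (38.4%). The call of Camk1d in TH at 4 weeks was lost with DESeq2 (adjusted p = 0.0531), with no low-count filter (0.0563), with relative log expression size factors (0.05003) and without single libraries (up to 0.174, without TH WT 142). At 12 weeks Camk2g in PFC was lost without WT 4 (0.0704), Camk4 in PFC without WT 3 or WT 5 (up to 0.0704) and Camkk2 in HP without WT 1, WT 3 or WT 4 (up to 0.0957). Of the 240 tests between pairs of regions, 197 were called, where between 16.1% and 71.8% of all genes were called per pair. In STR at 12 weeks the log2 difference from the other regions was 2.19 for Camk4, 1.28 for Camk2b, 1.12 for Camkk2, -1.67 for Camk2g and -1.93 for Camk2d. In SN it was -4.22 for Camk2a and -2.44 for Camkk2.

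Over the 12 WT groups, which share their libraries between genes, Camk4 and Camkk2 had the most alike patterns among the 28 pairs of kinases (Pearson r = 0.94 across group means of log2(CPM + 1)), and Camk2b and Camk2d the most opposed (r = -0.87). Among 11611 genes with a mean of at least 5 CPM, the pattern most like that of Camk2a belonged to Kalrn (r = 0.985), which encodes a guanine nucleotide exchange factor of dendritic spines, followed by Frrs1l (0.975) and Pgbd5 (0.972). The nearest patterns were those of Mettl23, Mta2 and Acvr1 for Camk2b (0.969 to 0.976), Fam185a, Arrdc1 and Ldhd for Camk2d (0.953 to 0.964), and Tmem145, Plcxd2 and Dnajc21 for Camk2g (0.95 to 0.98). They were Ubtd2 (0.98) and Zc3h18 (0.974) for Camkk2, Tomm34, Cnot3 and Tor1a for Camkk1 (0.946 to 0.951), Josd1, Gtf2h1 and Ino80 for Camk4 (0.963 to 0.972), and Alkbh1, Epha4 and Dnaja4 for Camk1d (0.957 to 0.962).

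In Akap11 -/- striatum 4 of the 8 kinases were lower than in WT at one age or both, 3 at 12 weeks and 2 at 4 weeks, and the 2 calls at 4 weeks depended on libraries that stood apart. No change passed the test in another region. Over the 12 combinations of region and age, 5 of 96 tests of KO against WT were called, all of them lower in KO and all in striatum. Another 18 tests had an unadjusted p under 0.05 without passing the adjustment. In striatum at 12 weeks Camk2b, Camkk2 and Camk1d were lower, 3 of 8 kinases, where 4.42% of all genes were called and 2.60% were called lower. At 4 weeks Camkk1 and Camkk2 were lower, 2 of 8, where 3.35% of all genes were called and 1.75% were called lower.

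**Figure D2:**
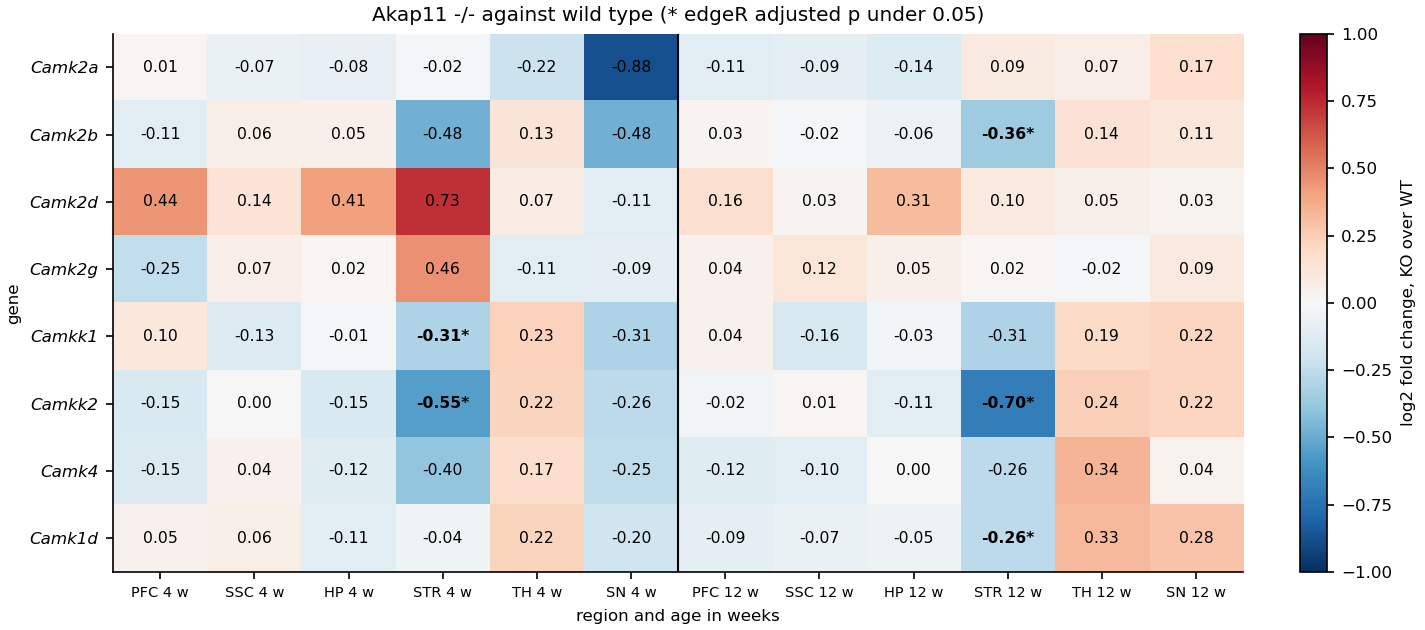
Log2 fold change of KO over WT for each kinase (rows) in each region at 4 and 12 weeks (columns), coloured from blue (lower in KO) to red (higher), with an asterisk where the edgeR adjusted p was under 0.05. The 5 asterisks all stand in the STR columns.

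Camk2b in the 12-week striatum stood at 1346, 1451, 1511.5, 1566 and 1608 CPM in KO and at 1773, 1865, 1896, 1949 and 2028 CPM in WT. All KO libraries lay below all WT libraries. They also lay below all 5 HET libraries, which held 1829.8, 1843, 1946, 1962 and 2043 CPM. The KO mean of 1496 ± 103 CPM against 1902 ± 95.0 CPM in WT (SD, n = 5 each) gave a log2 fold change of -0.36 ± 0.05 (SE, edgeR adjusted p = 0.000782).

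Camkk2 had the largest fall of the 8 kinases in that comparison. KO libraries held 236, 244, 246, 257 and 265 CPM, WT libraries 293, 351, 403, 444 and 514 CPM, and HET libraries 331, 360.2, 382, 391 and 457 CPM. The KO range was narrow and lay below every WT and HET library. The log2 fold change was -0.70 ± 0.12 (SE, edgeR adjusted p = 0.00196), from a KO mean of 249.6 ± 11.3 CPM and a WT mean of 401 ± 85.0 CPM (SD, n = 5 each).

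Camk1d, the CaM kinase I isoform, fell less. KO libraries held 216, 227, 228, 236 and 250.5 CPM and WT libraries 249, 265, 274, 288 and 296 CPM. The groups overlapped by a single pair, the highest KO library (KO 1) and the lowest WT library (WT 3). The log2 fold change was -0.26 ± 0.06 (SE, edgeR adjusted p = 0.0125).

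**Figure D3:**
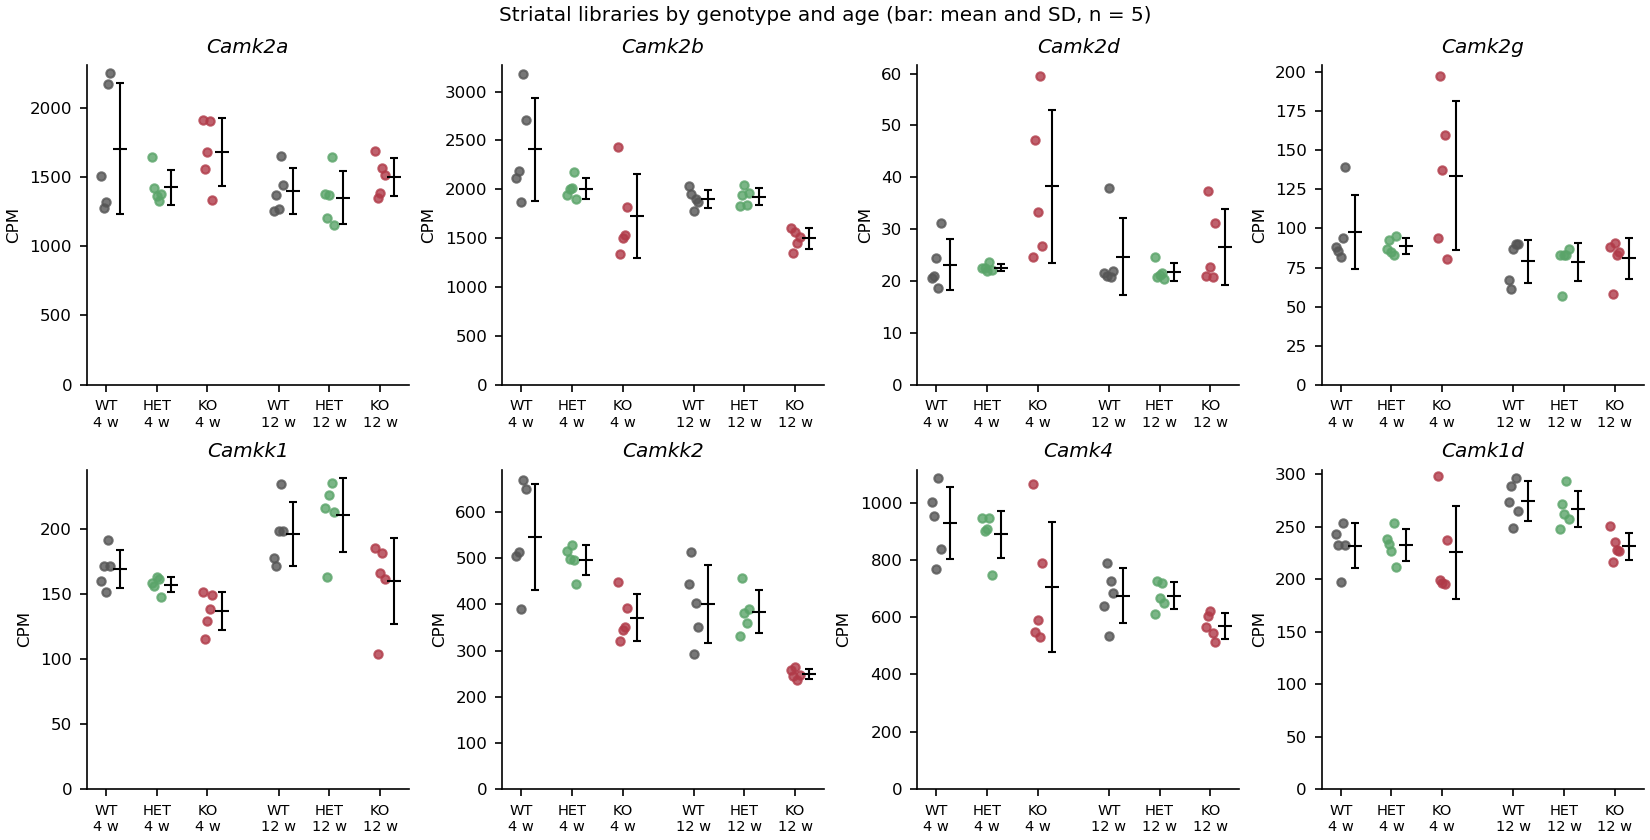
Levels of the 8 kinases in every striatal library, in CPM from 0, by genotype and age, with the mean and SD of each group of 5. At 12 weeks the KO points of Camk2b and Camkk2 lie below all WT and HET points, while Camk2a, Camk2d and Camk2g overlap between genotypes.

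These 3 calls held in all 6 other settings and with each KO or WT library left out in turn. The highest adjusted p without a library was 0.0033 for Camk2b, 0.00767 for Camkk2 and 0.0418 for Camk1d, in each case without KO 5. The mean log2 level of 8 cortical excitatory marker genes was low in these libraries, at 0.89 to 1.32 in KO and 0.89 to 1.05 in WT. The mean log2 level of 8 striatal projection neuron markers ran from 9.73 to 10.03 in KO and from 9.76 to 10.23 in WT, and its part in the falls was not tested. In bulk tissue, fewer cells of a type and less RNA per cell cannot be told apart.

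The other 5 kinases were not called in the 12-week striatum. Camk4 stood at 569 ± 44.1 CPM in KO against 675 ± 95.7 CPM in WT, a log2 difference of -0.26 ± 0.09 (SE, adjusted p = 0.111). It passed the threshold once WT 3, the lowest WT library, was left out (adjusted p = 0.0133). Camkk1 stood at 159.7 ± 33.0 against 196 ± 24.6 CPM, a log2 difference of -0.31 ± 0.13 (SE, adjusted p = 0.257), and the fit with the replicate number as a block called it (adjusted p = 0.0247). For the CaM kinase II subunits other than beta the differences were 0.09 ± 0.10 for Camk2a, 0.10 ± 0.19 for Camk2d and 0.02 ± 0.14 for Camk2g on the log2 scale (SE, adjusted p of 0.744 to 0.979).

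Set against HET in the same 12-week fit, KO was lower in the same 3 kinases, where 4.79% of all genes were called and 2.94% were called lower. The log2 fold changes were -0.38 for Camk2b (adjusted p = 0.000539), -0.63 for Camkk2 (adjusted p = 0.00406) and -0.22 for Camk1d (adjusted p = 0.0345). At 4 weeks edgeR called 0 of the 8 kinases in KO against HET (4 at an unadjusted p under 0.05), where 3.88% of all genes were called; DESeq2 was not run for this contrast. The contrast was added after the data were seen and shares its KO libraries with the comparison to WT. HET against WT gave 0 calls in 96 tests over all regions and ages (edgeR), with 12 at an unadjusted p under 0.05 and 0 calls by DESeq2. The only gene called was Akap11 itself, or none in HP and SN at 4 weeks. This share was 0.00613% in PFC, 0.00629% in SSC, 0.00608% in HP, 0.00640% in STR and TH and 0.00606% in SN at 12 weeks, and 0.00626% in PFC, 0.00627% in SSC, 0.00648% in STR and 0.00639% in TH at 4 weeks. In the 12-week striatum the HET differences lay between -0.18 (Camk2d) and 0.10 (Camkk1) on the log2 scale, with Camk2b at 0.02 ± 0.05 and Camkk2 at -0.06 ± 0.12 (SE).

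At 4 weeks the striatal comparison was wider in spread and depended on single libraries. Camkk2 stood at 321, 344, 351, 392 and 449.5 CPM in KO and at 391, 506, 514, 651 and 671 CPM in WT. KO 932 and KO 12 reached into the WT range, whose lowest library was WT 913. The log2 fold change was -0.55 ± 0.13 (SE, edgeR adjusted p = 0.0275). Camkk1 stood at 116, 129, 139, 149 and 152 CPM in KO and at 151.5, 160.2, 171.4, 171.5 and 191 CPM in WT, overlapping by a single pair. Its log2 fold change was -0.31 ± 0.08 (SE, edgeR adjusted p = 0.0379).

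The 4 striatal libraries that stood apart had high levels of cortical excitatory neuron markers. All 8 of 8 cortical excitatory markers were higher in each of them than in any other 4-week striatal library. Their summed level was 738 to 1541 CPM in KO 51, KO 161 and KO 163 and 834 CPM in WT 92. It was 17.3 to 22.2 CPM in the other 2 KO libraries, 20.2 to 40.9 CPM in the other 4 WT libraries and 19.6 to 133 CPM in HET, and no marker was at 0 in all libraries of a group. These 3 KO libraries were also the lowest of their group for Camkk2, Camkk1, Camk2b, Camk4 and Camk1d, and the highest for Camk2d and Camk2g. WT 92 was also the highest of its group for Camk2d and Camk2g, but only the highest WT library (WT 914) exceeded it for Camkk2, Camkk1 and Camk2b.

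Without the 4 libraries, none of the kinases was called at 4 weeks. Camkk2 then had a log2 difference of -0.32 (adjusted p = 0.350) and Camkk1 of -0.18 (adjusted p = 0.327), with 2 KO and 4 WT libraries. Leaving out KO 51, KO 161, KO 163, WT 42 or WT 914 singly also ended the call of Camkk2 (adjusted p of 0.0501 to 0.0770), and leaving out any of these or WT 142 ended that of Camkk1 (adjusted p of 0.0533 to 0.107). With the cortical score as a covariate Camkk2 remained called (adjusted p = 0.0462) and Camkk1 did not (adjusted p = 0.0802). With only the 2 compared genotypes in the fit neither was called (adjusted p = 0.130 for Camkk2 and 0.159 for Camkk1), and the call of Camkk1 also ended with no low-count filter (0.0542) and with relative log expression size factors (0.0525).

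Camk2b at 4 weeks held 1333, 1504, 1531, 1822 and 2430 CPM in KO and 1872, 2110, 2183, 2704 and 3175 CPM in WT. Of the KO libraries only KO 12 reached the WT range. Its log2 difference of -0.48 ± 0.17 (SE, adjusted p = 0.141) did not pass, and it was -0.15 without the 4 libraries. Camk2d was 38.3 ± 14.8 CPM in KO against 23.1 ± 4.91 CPM in WT (SD, n = 5 each), a log2 difference of 0.73 ± 0.21 (SE, edgeR adjusted p = 0.0672). DESeq2 called this gene (adjusted p = 0.0138), and its difference was 0.27 without the 4 libraries. Camk2g differed by 0.46 ± 0.20 and Camk4 by -0.40 ± 0.17 on the log2 scale (SE, adjusted p of 0.249 and 0.230), and without the 4 libraries by -0.01 and -0.05. Without KO 12 alone, Camk2b, Camk2d and Camk4 were each called (adjusted p of 0.0154 to 0.0183).

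In the other 5 regions edgeR called 0 of the 80 kinase tests in KO, with 12 at an unadjusted p under 0.05 and 0 calls by DESeq2, and few of all genes were called there. At 12 weeks this share was 0.0123% in PFC, 0.0252% in SSC, 0.00608% in HP, 0.00640% in TH and 0.0364% in SN. At 4 weeks it was 0.0125% in PFC, 0.0564% in SSC, 0.00609% in HP, 0.0128% in TH and 0.00617% in SN. The lowest unadjusted value among them (0.00361, edgeR) was that of Camkk1 in the 12-week SSC, where KO and WT libraries did not overlap (means of 177 and 197 CPM) and the log2 difference was -0.16 ± 0.05 (SE, adjusted p = 0.966). Next came the 12-week thalamus, with Camk4 higher by 0.34 ± 0.10, Camk1d by 0.33 ± 0.10 and Camkk2 by 0.24 ± 0.07 on the log2 scale (SE, adjusted p of 0.489 to 0.495). The widest differences were in the 4-week nigra, where Camk2a differed by -0.88 ± 0.57 (SE, adjusted p = 0.643). Its WT libraries there ran from 140.0 to 671 CPM, and WT 42 and KO 91 are among the libraries that stood apart.

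The striatal effect was then tested against the mean effect of the other 5 regions. At 12 weeks it was lower in striatum for 4 of 8 kinases, where 3.11% of all genes were called and 1.78% were called lower. The differences of log2 effects were -0.77 ± 0.09 for Camkk2 (adjusted p = 1.45e-09), -0.40 ± 0.06 for Camk2b (adjusted p = 7.74e-06), -0.37 ± 0.11 for Camkk1 (adjusted p = 0.0376) and -0.34 ± 0.10 for Camk1d (SE, edgeR adjusted p = 0.0317). Those of Camkk2 and Camk2b held under every setting and with each library left out. That of Camkk1 was lost with no low-count filter (adjusted p = 0.0504) and without STR KO 2, KO 5, WT 4 or WT 5 (0.0648 to 0.245). That of Camk1d was lost without STR KO 2, KO 4, KO 5, WT 1, WT 2 or WT 4 (adjusted p of 0.0540 to 0.0947).

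At 4 weeks only Camk2g was called in this test, higher in striatum by 0.53 ± 0.16 (SE, adjusted p = 0.0482), where 3.52% of all genes were called and 2.82% were called higher. Its effect difference fell to 0.09 (adjusted p = 0.861) without the libraries that stood apart, and the call was also lost with no low-count filter (0.0674), with relative log expression size factors (0.0554) and with the replicate block (0.0643). The KO effects at 12 and 4 weeks were not shown to differ for any kinase in any region. Of these 48 tests edgeR called 0 (3 at an unadjusted p under 0.05), DESeq2 called 0, and 0% of all genes were called by edgeR in each region.

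The ratio of Camk2a to Camk2b counts was compared within each library, where scaling between libraries has no part. In the striatum it restates the values above for the same libraries and is no separate support. In the 12-week striatum the log2 ratio of Camk2a to Camk2b was 0.00052 ± 0.11 in KO, from -0.18 to 0.11, and -0.45 ± 0.18 in WT, from -0.70 to -0.20 (SD, n = 5 each). The groups did not overlap. The difference of 0.45 had a two-sided exact permutation p = 0.00794, the smallest that 5 against 5 libraries allow, and p = 0.0952 after adjustment over the 12 comparisons of region and age. A single comparison at the smallest p cannot reach an adjusted p below this value, so the design fixed that outcome. HET libraries had a log2 ratio of -0.52 ± 0.24 (SD, n = 5), and their highest, -0.16, lay above the lowest KO library.

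At 4 weeks the striatal ratio was -0.02 ± 0.35 in KO and -0.52 ± 0.18 in WT (SD, n = 5 each), a difference of 0.50 (exact permutation p = 0.0397, adjusted p = 0.238). The 3 KO libraries that stood apart had the 3 highest ratios, and the difference of 0.50 includes them and WT 92. In the other 10 comparisons the exact permutation p was at least 0.117, and 0 of the 12 passed the adjustment. In WT the ratio followed the regions, with means of 2.26 in PFC, 1.89 in SSC, 1.34 in HP, 0.54 in TH, -0.45 in STR and -1.52 in SN at 12 weeks.

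**Figure D4:**
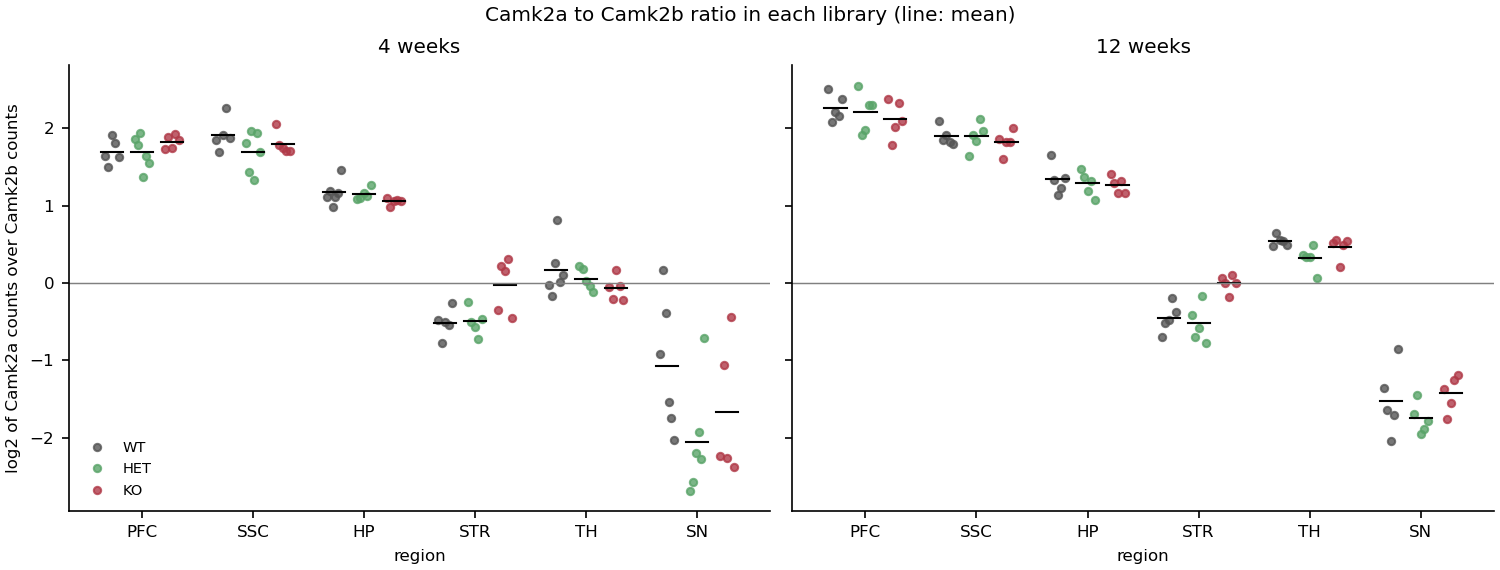
Log2 of the ratio of Camk2a counts to Camk2b counts in each library, by region and genotype, at 4 weeks (left) and 12 weeks (right), with a line at each group mean. In STR at 12 weeks the 5 KO points lie between -0.18 and 0.11, above the 5 WT points, while KO and HET overlap (highest HET point -0.16). In the other regions the genotypes overlap.

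Of 47 other genes of the pathway, in 6 lists, 46 were tested in striatum, and 5 gene-by-age tests were called. At 12 weeks 3 of 46 were called, where 4.42% of all genes were called, and at 4 weeks 2 of 46, where 3.35% were, so the counts lie near these shares. DESeq2 called 12 gene-by-age tests in striatum, while over all regions 2 calls were left with the cortical score as a covariate and 2 with only the compared genotypes in the fit. At 12 weeks 3 genes were lower in KO. Ppp3ca, the catalytic alpha subunit of the calcium/calmodulin-dependent phosphatase calcineurin, had a log2 fold change of -0.34 ± 0.07 (2503 against 3147 CPM, adjusted p = 0.0123), and Ppp3r1, its regulatory subunit, of -0.27 ± 0.07 (887 against 1062 CPM, adjusted p = 0.0434). Camk2n1, an inhibitor of CaM kinase II, had a log2 fold change of -0.41 ± 0.11 (1155 against 1528 CPM, SE, edgeR adjusted p = 0.0441). The call of Ppp3ca held in every setting and with each library left out. Those of Ppp3r1 and Camk2n1 were lost in 8 and 9 of 10 leave-outs, with adjusted p-values of up to 0.119 and 0.126.

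At 4 weeks Crem, a cyclic AMP-responsive transcription factor gene, was higher in KO (13.6 against 9.75 CPM, log2 fold change 0.48 ± 0.09, SE, adjusted p = 0.00637). KO and WT libraries did not overlap, and the call held in every setting and leave-out. Shank3, a postsynaptic scaffold gene, was lower (407 against 633 CPM, log2 fold change -0.64 ± 0.16, SE, adjusted p = 0.0405), and its adjusted p was 0.288 without the 4 libraries that stood apart. By list, where 2.60% of all genes were called lower at 12 weeks and 1.75% at 4 weeks, calcineurin had 2 of 6 genes lower at 12 weeks, the inhibitors and phosphatases of these kinases 1 of 4 lower at 12 weeks, synaptic partners 1 of 12 lower and nuclear and metabolic targets 1 of 9 higher at 4 weeks (1.59% of all genes were called higher). Calmodulin and its buffers had 0 of 7 and the other calmodulin-regulated kinases 0 of 8 tested. The median log2 difference at 12 weeks was -0.26 over the 8 kinases, -0.05 over the 46 pathway genes and 0.0053 over all genes tested. In the other 5 regions edgeR called 0 of 468 tests of these genes in KO (56 at an unadjusted p under 0.05, 3 calls by DESeq2). In HET it called 0 of 560 over all regions (63 at an unadjusted p under 0.05, 7 calls by DESeq2).

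Between 4 and 12 weeks, WT levels of Camk4, Camk2b and Camkk2 were lower at the older age in several regions and those of Camk1d higher in 3, while Camkk1 was higher in 2 regions and lower in 1. Age cannot be told apart from anything else that differed between the cohorts of mice. Of 48 tests, 22 were called, 5 higher and 17 lower at 12 weeks. These were 6 of 8 kinases in SSC (27.1% of all genes called), 4 in PFC (19.1%), 4 in SN (18.6%), 3 in STR (18.5%), 3 in HP (17.7%) and 2 in TH (22.6%). Higher at 12 weeks were 2 kinases in SSC (13.5% of all genes), 1 each in PFC (8.89%), STR (9.12%) and HP (7.05%), and 0 in SN (6.86%) and TH (10%). Lower were 4 each in SSC (13.7%) and SN (11.8%), 3 in PFC (10.2%), and 2 each in STR (9.41%), HP (10.6%) and TH (12.6%).

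Camk4 was lower at 12 weeks in 5 regions, with log2 fold changes of -0.54 ± 0.12 in TH, -0.44 ± 0.10 in SSC, -0.43 ± 0.13 in PFC, -0.43 ± 0.14 in STR and -0.42 ± 0.11 in HP (SE, edgeR adjusted p of 0.00119 to 0.0270). In TH the 6 libraries at 4 weeks had a lowest level of 169 CPM, a median of 206 CPM and a highest of 270.4 CPM, and those at 12 weeks held 129, 136, 138, 157 and 164 CPM. The ages did not overlap there. In SN Camk4 differed by -0.74 ± 0.28 (SE, adjusted p = 0.0673).

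**Figure D5:**
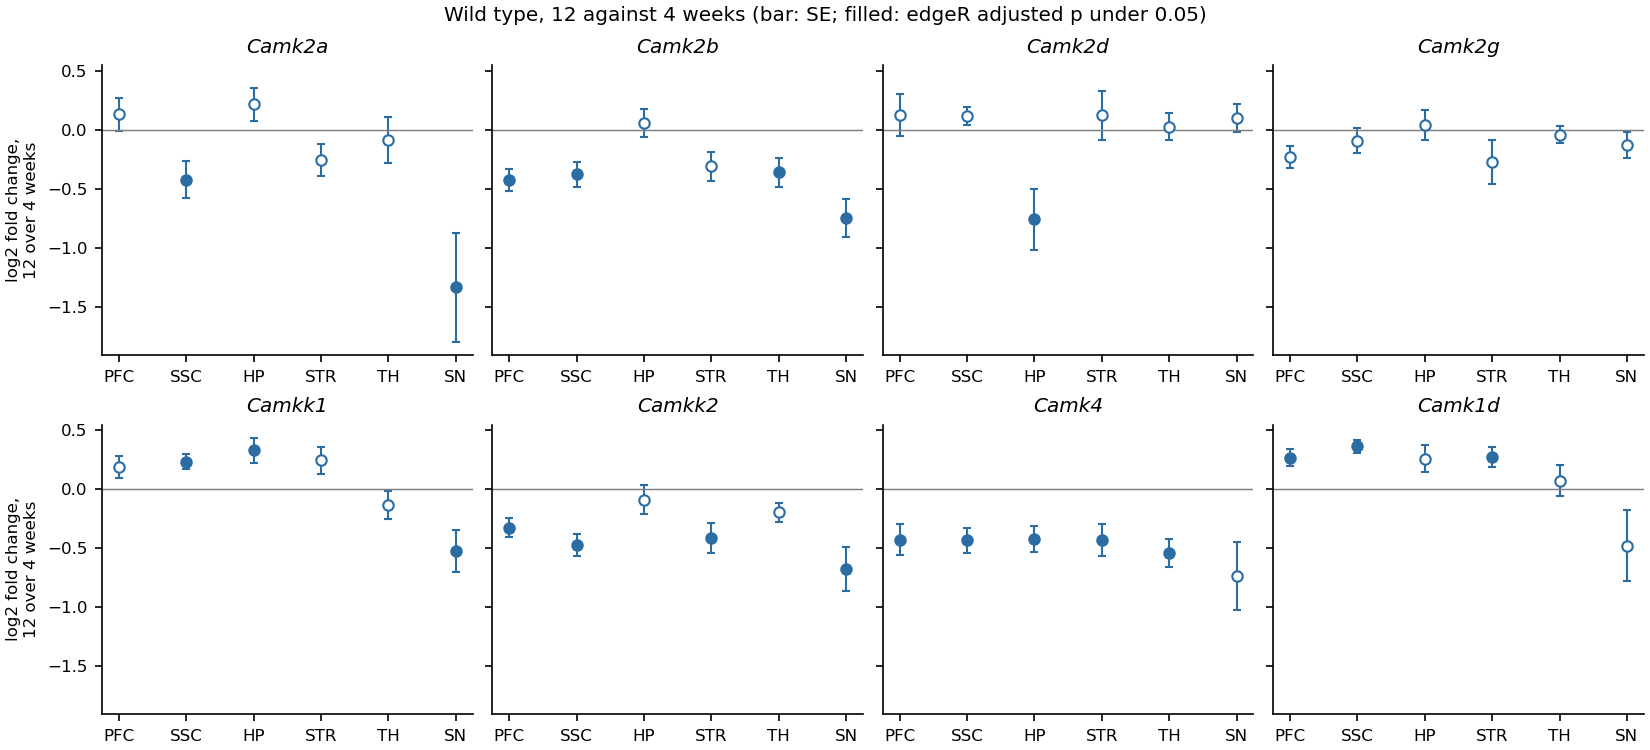
Log2 fold change of 12 over 4 weeks in WT (vertical axis) with its SE, by region, for each kinase, filled where the edgeR adjusted p was under 0.05. Camk4 lies below 0 in all 6 regions, between -0.74 and -0.42, and Camk1d is filled above 0 in PFC, SSC and STR.

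Camk2b was lower at 12 weeks in PFC (-0.43 ± 0.09), SSC (-0.38 ± 0.11), TH (-0.36 ± 0.12) and SN (-0.75 ± 0.16 on the log2 scale, SE, adjusted p of 0.00122 to 0.0310). In PFC the 5 libraries at 4 weeks held 880.3, 916, 943, 1034 and 1363 CPM and those at 12 weeks 729, 757, 765, 773 and 785 CPM, with no overlap. Camkk2 was lower in SSC (-0.47 ± 0.09), PFC (-0.33 ± 0.08), STR (-0.42 ± 0.13) and SN (-0.68 ± 0.19, SE, adjusted p of 0.000372 to 0.0196). In SSC it went from 623, 668, 679, 880.0 and 888 CPM at 4 weeks to 512, 522, 546, 547 and 553 CPM at 12 weeks, with no overlap.

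Camk1d was higher at 12 weeks in SSC (0.36 ± 0.06), STR (0.27 ± 0.09) and PFC (0.27 ± 0.07, SE, adjusted p of 2.97e-05 to 0.0269). Its SSC libraries held 184, 187, 194, 207 and 213 CPM at 4 weeks and 231, 246.8, 246.9, 264 and 269.8 CPM at 12 weeks, with no overlap. Camkk1 was higher in HP (0.33 ± 0.11) and SSC (0.23 ± 0.07) and lower in SN (-0.53 ± 0.18, SE, adjusted p of 0.00890 to 0.0355). Camk2a was lower in SSC (-0.42 ± 0.16) and SN (-1.34 ± 0.46, SE, adjusted p of 0.0410 and 0.0412). Camk2d was lower in HP (-0.76 ± 0.26, SE, adjusted p = 0.0396), and Camk2g was not called in any region. The thalamic marker score of WT hippocampal libraries ran from 3.16 to 6.85 at 4 weeks and from 3.00 to 4.33 at 12 weeks. In order of rising score, the 4-week libraries (92, 42, 142, 913, 914 and 23) held 24.0, 28.6, 40.8, 49.7, 79.0 and 87.1 CPM of Camk2d. The part of these markers in this fall was not tested.

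Marker scores also moved with age in the WT nigra, where Camk2a, Camk2b, Camkk1 and Camkk2 were lower. As mean log2(CPM + 1), the score of 6 thalamic markers ran from 3.27 to 7.71 at 4 weeks (median 5.725) and from 3.35 to 3.60 at 12 weeks. That of 6 dopamine neuron markers ran from 2.02 to 7.45 at 4 weeks and from 7.64 to 8.06 at 12 weeks, and that of 6 oligodendrocyte markers from 10.85 to 12.55 and from 9.73 to 10.09. The 4-week WT 23 (6.12) and WT 142 (5.33), which are not among the libraries that stood apart, also had thalamic scores above every 12-week library. Camk2a was higher in thalamus than in nigra, at 1056 against 326 CPM at 4 weeks, and the part of these markers in the nigral falls was not tested. The oligodendrocyte score is given here for the nigra only, so its fall with age is not shown to be particular to that region. The part of oligodendrocyte markers in the age calls of the other regions, including those that held in every setting, was not tested.

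Of these 22 calls, 10 held in every setting and with each library left out: Camk4 in HP, SSC and TH, Camk2b in PFC, SSC and SN, Camkk2 in PFC and SSC, and Camkk1 and Camk1d in SSC. The 4-week WT library 914 gave the highest adjusted p when it was left out for Camk2a in SSC (0.219), Camk4 in PFC (0.0941), Camk4 in STR (0.0851) and Camkk2 in STR (0.0779). Of the other 4-week WT libraries, 23 did so for Camk2d in HP (0.145) and Camk2a in SN (0.121), 913 for Camk2b in TH (0.148) and 42 for Camkk2 in SN (0.0516). Of the 12-week WT libraries, number 2 did so for Camkk1 in HP (0.0959) and SN (0.0894), number 1 for Camk1d in PFC (0.0519) and number 4 for Camk1d in STR (0.0830). With no low-count filter Camk2d in HP (adjusted p = 0.0519), Camk2a in SN (0.0535) and Camk2a in SSC (0.0566) were not called. Without the libraries that stood apart, Camk2b in TH (-0.25, adjusted p = 0.145), Camkk1 in SN (-0.33, adjusted p = 0.103) and Camkk2 in STR (-0.36, adjusted p = 0.0542) were not called.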

How the data were processed

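RNA-seq libraries were made with the Illumina TruSeq Stranded mRNA kit from 200 ng of total RNA of cryostat-dissected frozen brain, per the labels' protocols. The deposited table gives expected counts, estimates that are often not whole numbers, for 28338 gene symbols in 186 libraries. Salmon and the mm10 build are named in the submitters' processing notes, without a version or a stated role. The 8 kinases and all gene lists were chosen with earlier results of these data known. The named genes are these 8, Akap11, the 3 genes with the most alike WT pattern for each, and the pathway genes called in KO against WT; 1 alike gene is not reported here.

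Expected counts were rounded to whole numbers and fitted with edgeR 4.0.16 in R 4.3.3 (TMM, filterByExpr, glmQLFit, glmQLFTest) over all genes. KO and HET were compared with WT per region and age with the 3 genotypes in one fit, regions per age over WT libraries, ages per region over all genotypes, and the striatal effect per age over all regions. Benjamini-Hochberg adjustment covered all genes of a comparison, and an adjusted p under 0.05 made a call. The SE of a log2 fold change is its absolute value over the root of F. CPM for display used one TMM scaling over all libraries, and log2 fold changes come from the fits. The Camk2a to Camk2b ratio was tested with an exact two-sided permutation test of the log2 count ratio per library. Marker scores are mean log2(CPM + 1). The pipeline was tested on simulated counts.

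Alternatives were DESeq2 1.42.0, no low-count filter, relative log expression scaling, the 2 compared genotypes alone, a cortical marker covariate, a replicate block (limma 3.58.1 across regions), the 11 libraries that stood apart left out, and each library left out. Added after seeing the data were a covariate for 16 libraries at 4 weeks with few whole values (at most 5.55%, against at least 17.3% in the others) and KO against HET. No replicate pair agreed within sampling noise: over 390 replicate pairs the count chi-square divided by its degrees of freedom was at least 7.97.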

Additional observations from a re-analysis of the deposited data

Results flagged for a closer look

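Within each group of 5 or 6 libraries, the highest and lowest values of each kinase were set against the rest of the group by Dixon's criterion. In 26 of 288 sets of gene and group a single library lay far from the others, in 21 libraries, where chance gives about 1 in 20 sets (14.4).

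Several of these values belong to the same library, or to libraries of different regions that share a number. At 4 weeks the nigral library WT 42 was high for Camk4 (160.5 CPM against 40.6 to 53.0 CPM in the others), Camk1d (210.4 CPM) and Camkk2 (136 CPM). The nigral library KO 91 was high for Camk4 (114 CPM against 37.5 to 43.8 CPM) and Camk2a (482 CPM against 65.1 to 163 CPM), and the nigral HET 941 for Camk2a (269.97 CPM against 52.2 to 89.1 CPM). At the same age the hippocampal library HET 941 was high for Camkk2 (382 CPM against 203 to 223 CPM) and Camk2g (347 CPM against 169 to 206 CPM). It had the lowest hippocampal marker score of the hippocampal libraries (4.31). Its cortical excitatory score (6.71) was the highest outside the cortical libraries, and the part of these markers in its values was not tested. The PFC library HET 941 was high for Camk2b (1247 CPM against 935 to 952 CPM) and Camkk2 (470.5 CPM). Among the 12-week HET libraries, those numbered 5 were low for Camkk1 in PFC (145 CPM) and SSC (177 CPM), and for Camk2d in thalamus (158 CPM).

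In thalamus at 4 weeks WT 913 was high for Camk2a (2234 CPM against 699.9 to 913 CPM), as was HET 11 (1442 CPM against 908 to 1051 CPM), and at 12 weeks WT 5 was high for Camk2b (742 CPM). In striatum Camk2g was high in WT 92 at 4 weeks (139.5 CPM) and low at 12 weeks in number 2 of HET (56.7 CPM) and of KO (57.9 CPM). Camk2d was high in the 12-week striatum in WT 3 (37.9 CPM against 20.8 to 22.0 CPM) and HET 1 (24.7 CPM), and Camk4 was low in the 4-week striatum in HET 931 (748 CPM). In SSC Camk2g was low in the 12-week KO 2 (468 CPM) and Camk4 high in the 4-week KO 12 (810.3 CPM against 517 to 559.8 CPM). In hippocampus Camk2a was high in the 12-week KO 1 (4929 CPM) and Camk1d low in the 4-week WT 914 (213.5 CPM against 291 to 327 CPM).

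For 5 kinases the KO effect in striatum was set against its average in the remaining regions and differed by a test of that difference itself (edgeR quasi-likelihood test). On the log2 scale striatum minus the other regions at 12 weeks was -0.77 for Camkk2, -0.40 for Camk2b, -0.37 for Camkk1 and -0.34 for Camk1d, and at 4 weeks it was 0.53 for Camk2g. Only 2 of the 5, those of Camkk2 and Camk2b, held in every setting and with each library left out. The call of Camk2g was lost without the libraries that stood apart, and those of Camkk1 and Camk1d without single striatal libraries.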

How the results depend on the processing

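The 5 calls of KO against WT became 3 with only the 2 compared genotypes in the fit and 3 without the libraries that stood apart. With one library left out at a time they ranged from 3 to 8. The count was 8 without the 4-week striatal KO 12, and 3 without the 4-week striatal KO 51, KO 161, KO 163, WT 42 or WT 914. The 5 striatal effect differences became 3 with no low-count filter, which tests more genes, and ranged from 3 to 5 with a library left out, with 3 without the 12-week striatal KO 2, KO 5 or WT 4. The 5 pathway calls became 15 with DESeq2, 2 with the cortical covariate, 2 with only the 2 compared genotypes and 9 with the replicate block. With a library left out they ranged from 3 to 10, with 10 without the 12-week striatal WT 3 or the 4-week striatal KO 12, and 3 without the 12-week striatal KO 2, KO 5, WT 1, WT 4 or WT 5. The ratio of Camk2a to Camk2b passed in 0 comparisons and ranged from 0 to 2 with a library left out, with 2 calls without the 4-week hippocampal WT 42. That library had the lowest log2 ratio of its group (0.99), inside the KO range there (0.98 to 1.10). Without it the KO and WT libraries of the 4-week hippocampus did not overlap in this ratio. The other call was that of the 12-week striatum, whose libraries and exact permutation p (0.00794) were unchanged. It passed only because the adjustment over the comparisons changed. No cause was tested for the moves in these counts.

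Calls of WT regions (77 to 80 against 78 in the main setting, 77 to 81 with a library left out), of region pairs (193 to 207, and 194 to 202) and of age (19 to 24, and 19 to 23) stayed within 1.5 times. HET against WT and the KO effect between ages stayed at 0. No called difference changed direction in these alternatives, while some that were not called did, such as Camk2d in the 12-week striatum with a library left out (log2 difference of KO over WT from -0.06 to 0.31). The numbers were not taken to pair the libraries, because not every same-number pair was over 0.1. Pairs with different numbers were not compared, so this rule cannot decide whether libraries with the same number are related. Of 30 pairs of KO and WT libraries with the same number at 12 weeks, 16 had a correlation of deviations over 0.1, from -0.27 to 0.58. Between regions of WT, 49 of 75 same-number pairs were over 0.1 at 12 weeks (median 0.12) and 31 of 76 at 4 weeks (median 0.03). With the replicate block 6 tests were called, the added one being Camkk1 in the 12-week striatum (adjusted p = 0.0247). The sign-flip test of the 12-week striatal ratio over replicate numbers had an exact permutation p = 0.0625, the smallest that 5 pairs allow.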
